A study of Mus musculus with 20 samples.

Results

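Lysosomes break down material that reaches them in vesicles, and the Golgi apparatus modifies, cleaves and sorts the proteins of the secretory route. Endosomes connect both, since cargo that is not returned from endosomes to the Golgi or the cell surface ends in the lysosome. Genes of these compartments, 6 in number, were followed here in bisulfite-treated mRNA: Hgsnat, whose enzyme acetylates heparan sulfate at the lysosomal membrane so that it can be degraded further; Acp2, a lysosomal acid phosphatase; Vps26c, a subunit of the retriever complex that returns cargo from endosomes; Tpst2, a tyrosine sulfotransferase of the Golgi; and Pcsk6 and Furin, proprotein convertases that cleave precursors of secreted and membrane proteins. All sites that the table assigned to these gene symbols were taken, 30 of 32378 listed cytosines and 6 of 10243 genes. Furin and Pcsk6 had 9 sites each, Tpst2 had 5, Acp2 had 3, and Hgsnat and Vps26c had 2 each. The 6 genes were chosen by the knockout and wild-type m5C levels of single sites in this same table, so that contrast is described below with no test. Over all their sites, the pooled level was higher in knockout at 9 and higher in wild type at 21.

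Nsun6 encodes an enzyme that methylates cytosine in mRNA to 5-methylcytosine (m5C), typically at the first base of the sequence CTCCA. Bisulfite converts unmethylated cytosine, which is then read as T, and the m5C level is the number of reads that still carry C at a site divided by its coverage. Knockout (KO) mice, in which exons 3 and 4 of Nsun6 had been deleted with CRISPR/Cas9 in fertilized eggs of the C57BL/6J strain, were compared with wild-type (WT) mice. Females aged 8 weeks gave heart, kidney, liver, spleen and small intestine, each with 2 KO and 2 WT libraries, 20 in all. The deletion was not limited to a tissue or cell type, and no source used here states whether 2 libraries of the same tissue and genotype stem from different animals, so the spread between them may be technical. Nsun6 had 0 listed sites, which means that the deletion could not be checked in these data.

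Each library held between 1230665 and 4640168 reads over the listed sites, with a median coverage of 26 to 82 reads a site. The table listed a cytosine when it passed the authors' thresholds in at least 1 library, and 97.1% of all listed sites passed in exactly 1. The 6 genes had a value, meaning at least 10 reads, in 453 of 600 combinations of a site and a library. Marker genes of each organ took a larger share of reads in its own libraries than in those of any other organ, although heart was represented by only 3 of 8 markers. Liver WT replicate 1 stood apart: spleen markers took 0.0162% and 0.0166% of reads in the KO liver libraries, 0.0107% in liver WT replicate 2 and 0.218% in liver WT replicate 1. Its erythroid markers took 0.542% and its macrophage markers 0.133% of reads, above the other liver libraries. Liver markers took 35.8% and 32.7% of reads in the KO liver libraries, 32.2% in liver WT replicate 1 and 14.3% in liver WT replicate 2. Spleen libraries differed in erythroid markers, which took 0.314% and 0.276% of reads in KO, 4.39% in WT replicate 1 and 0.00365% in WT replicate 2. The part of these differences in the liver and spleen results was not tested.

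The sequence CTCCA, read on the mRNA strand from the measured cytosine, was found at 5 of the 30 sites and at 302 of 32365 listed sites with sequence (0.933%). Exactly 1 such site lay in each of Hgsnat, Vps26c, Tpst2, Pcsk6 and Furin, and none in Acp2. The 21 bases around them are shown because the KO and WT levels of these 5 sites carry the results, and the lines after them give the sites of other sequence that had unconverted reads in at least 3 libraries. Capitals mark the measured cytosine and the 4 bases after it. They are given in mm10 in the sense of the mRNA, 5′ to 3′.
Hgsnat: agcacccatcCTCCAccgtgc
Vps26c: gactgtaaacCTCCAgctcag
Tpst2: tggaagctctCTCCAagtgga
Pcsk6: gtcgccagccCTCCAtggcac
Furin: gcagccacctCTCCAagggct
Acp2, A-run site: aaaaaaaaaaCAAAAatgccc
Pcsk6, CDS site: cagctgcattCCGGActgtga
Furin, 5′ UTR site: cgaggggtacCCGAGcggccg
Furin, CDS site: ggcacgttcgCTGGGcctgaa

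Coding sequence held 3 of the CTCCA sites. The Hgsnat site (chr8:25953277-25953297, minus strand) lay in exon 13 of 18, the Vps26c site (chr16:94512276-94512296, minus strand) in exon 2 of 8, and the Tpst2 site (chr5:112309730-112309750, plus strand) in exon 4 of 7. The other two were in the 3′ UTR of the last exon, 882 nt after the stop codon in Pcsk6 (chr7:66049873-66049893, plus strand) and 404 nt after it in Furin (chr7:80390295-80390315, minus strand). The Acp2 site (chr2:91213144-91213164, plus strand) followed a run of A in the 3′ UTR, 2416 nt after the stop codon, the Pcsk6 CDS site was at chr7:66038993-66039013 (plus strand) in exon 19 of 22, the Furin 5′ UTR site at chr7:80402572-80402592 (minus strand) and the Furin CDS site at chr7:80395447-80395467 (minus strand) in exon 8 of 16. Of all 30 sites, 15 were in coding sequence, 14 in 3′ UTRs and 1 in a 5′ UTR, against 50.9%, 24.3% and 5.69% of all listed sites. A predicted fold of the 61 nt around each CTCCA site left its cytosine unpaired in Hgsnat, Tpst2 and Pcsk6 and paired in Vps26c and Furin. Over the 277 CTCCA sites of the table that could be folded, 59.9% were unpaired. CNGGG, the sequence often given for the related enzyme Nsun2, was at 1 of the 30 sites, the Furin CDS site, and at 4.45% of all listed sites.

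**Figure D1:**
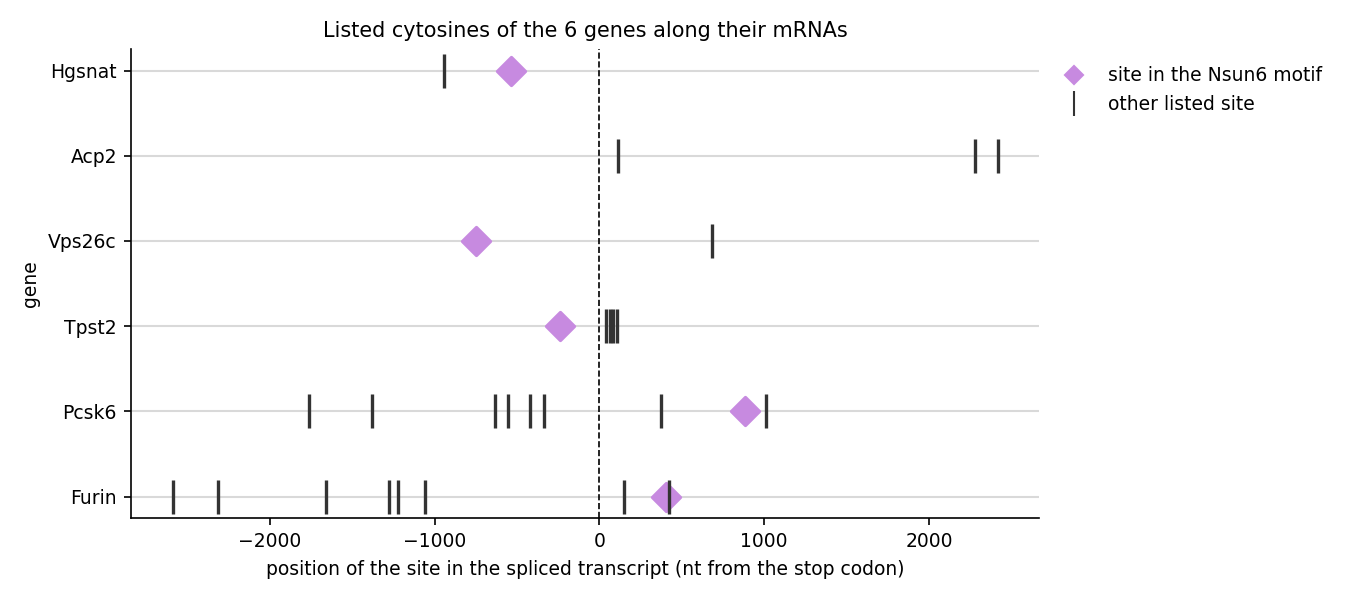
Positions of the 30 listed cytosines along the mRNAs of the 6 genes, in nt from the stop codon (dashed line); diamonds are sites in the Nsun6 motif and ticks are the other sites. Each gene except Acp2 has 1 diamond, before the stop codon in Hgsnat, Vps26c and Tpst2 and after it in Pcsk6 and Furin.

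At the 5 CTCCA sites unconverted reads were nearly absent from KO libraries and were spread over many WT libraries. They were present in 1 of 40 KO values (2.5%) and in 25 of 43 WT values (58.14%). At the CTCCA sites of other genes the shares were 6.749% of 1778 KO values and 25.16% of 1769 WT values, and at the remaining sites of other genes 13.13% of 190791 KO values and 12.52% of 183759 WT values. The other 25 sites of the 6 genes had unconverted reads in 12.44% of 193 KO values and 15.82% of 177 WT values. The genes were chosen by KO and WT levels of single sites, so the choice favours a low KO and a high WT share at their CTCCA sites. The gap to the CTCCA sites of other genes is therefore not read as a result. Values of 1 library also share its depth and conversion, so these shares are a description.

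Hgsnat had 0 unconverted reads among 498 KO reads, which allows a level of up to 0.00602, and 26 among 256 WT reads. In liver, its KO libraries had 0 of 26 and 0 of 35 reads unconverted, against 5 of 38 and 9 of 41 in WT. In kidney, 0 of 222 and 0 of 79 KO reads were unconverted, against 6 of 35 and 3 of 59 WT reads. Both tissues thus had unconverted reads in each WT library and in neither KO library. Mean levels were 0 in KO and 0.176 ± 0.0622 in WT liver, and 0 in KO and 0.111 ± 0.0853 in WT kidney (SD, n = 2 each). In spleen, KO replicate 1 had 0 of 47 reads, against 3 of 26 and 0 of 19 in WT, and KO replicate 2 had no listed value. Both heart KO libraries were also at 0, of 48 and 25 reads, but the only WT heart value was 0 of 15 reads. Small intestine, with 0 of 16 KO and 0 of 23 WT reads, was covered in 1 library of each genotype. Depth therefore did not allow a comparison in heart or small intestine.

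Tpst2, which transfers sulfate to tyrosines of proteins passing the trans-Golgi, had 0 unconverted reads among 454 in KO (up to 0.00661 allowed) and 34 among 578 in WT. In kidney the KO libraries had 0 unconverted reads among 165 in sum, against 6 of 33 and 2 of 22 in WT, a mean level of 0 in KO and 0.136 ± 0.0643 in WT. In liver the KO libraries had 0 of 17 and 0 of 18, against 4 of 39 and 10 of 77 in WT, where the mean was 0.116 ± 0.0193. The WT libraries of both tissues lay above KO, but KO liver fell just short of the 20 reads that the criteria below ask for. Spleen differed between its WT libraries, with 0 of 142 and 0 of 62 in KO against 0 of 67 and 9 of 199 in WT. Heart had 0 of 13 and 0 of 26 in KO, against 0 of 43 and 1 of 61 in WT. In small intestine the covered KO library had 0 of 11, against 0 of 20 and 2 of 17 in WT. In the last 3 tissues the KO and WT values overlapped, since a WT library was at 0 as well.

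Pcsk6, whose convertase is secreted and held in the extracellular matrix, had 0 of 336 reads unconverted in KO and 54 of 399 in WT, a pooled WT level of 0.135 and the highest of the 5 CTCCA sites. In heart KO replicate 2 had 0 of 40 reads unconverted and KO replicate 1 had no listed value, against 12 of 48 and 19 of 129 in WT, a WT mean of 0.199 ± 0.0726. Liver had 0 of 53 and 0 of 44 in KO, against 8 of 37 and 9 of 150 in WT. Every covered WT library exceeded every covered KO library at this site. The WT liver mean of 0.138 ± 0.111 had an SD close to its size, because WT replicate 1 was at 0.216 and WT replicate 2 at 0.06. Kidney was covered in 1 library of each genotype, with no unconverted read in KO and 6 of 35 in WT, and spleen in none.

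Vps26c and Furin had lower and less even levels. Vps26c had 1 unconverted read among 505 in KO and 18 among 396 in WT, and the KO read was in heart replicate 2 (1 of 49), where both WT libraries were at 0 (of 15 and 32). Kidney was the only tissue with unconverted Vps26c reads in both WT libraries, 2 of 22 and 5 of 93, against 0 of 140 and 0 of 20 in KO. In small intestine (0 of 21 and 0 of 91 in KO, against 3 of 29 and 0 of 36 in WT) and spleen (0 of 115 and 0 of 39 in KO, against 3 of 70 and 0 of 51 in WT) only WT replicate 1 had any. Its highest level, 0.312 in liver WT replicate 1, rested on 5 of 16 reads, with an exact 95% interval from 0.11 to 0.587. The covered KO liver library had 0 of 10 and liver WT replicate 2 had 0 of 32, so the depth in liver allowed no comparison.

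The Furin CTCCA site was unevenly covered between tissues and mostly unmethylated, with 0 of 511 unconverted reads in KO and 7 of 541 in WT. The 7 reads were in kidney (0 in KO, against 1 of 38 and 2 of 86 in WT) and heart (0 in KO, against 4 of 30 and 0 of 15 in WT). In small intestine, liver and spleen both genotypes were at 0, which for the 173 WT liver reads allows a level of up to 0.0173. In spleen the limit was 0.0714 for the 42 WT reads and 0.103 for the 29 KO reads. No tissue met the criteria at this site.

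**Figure D2:**
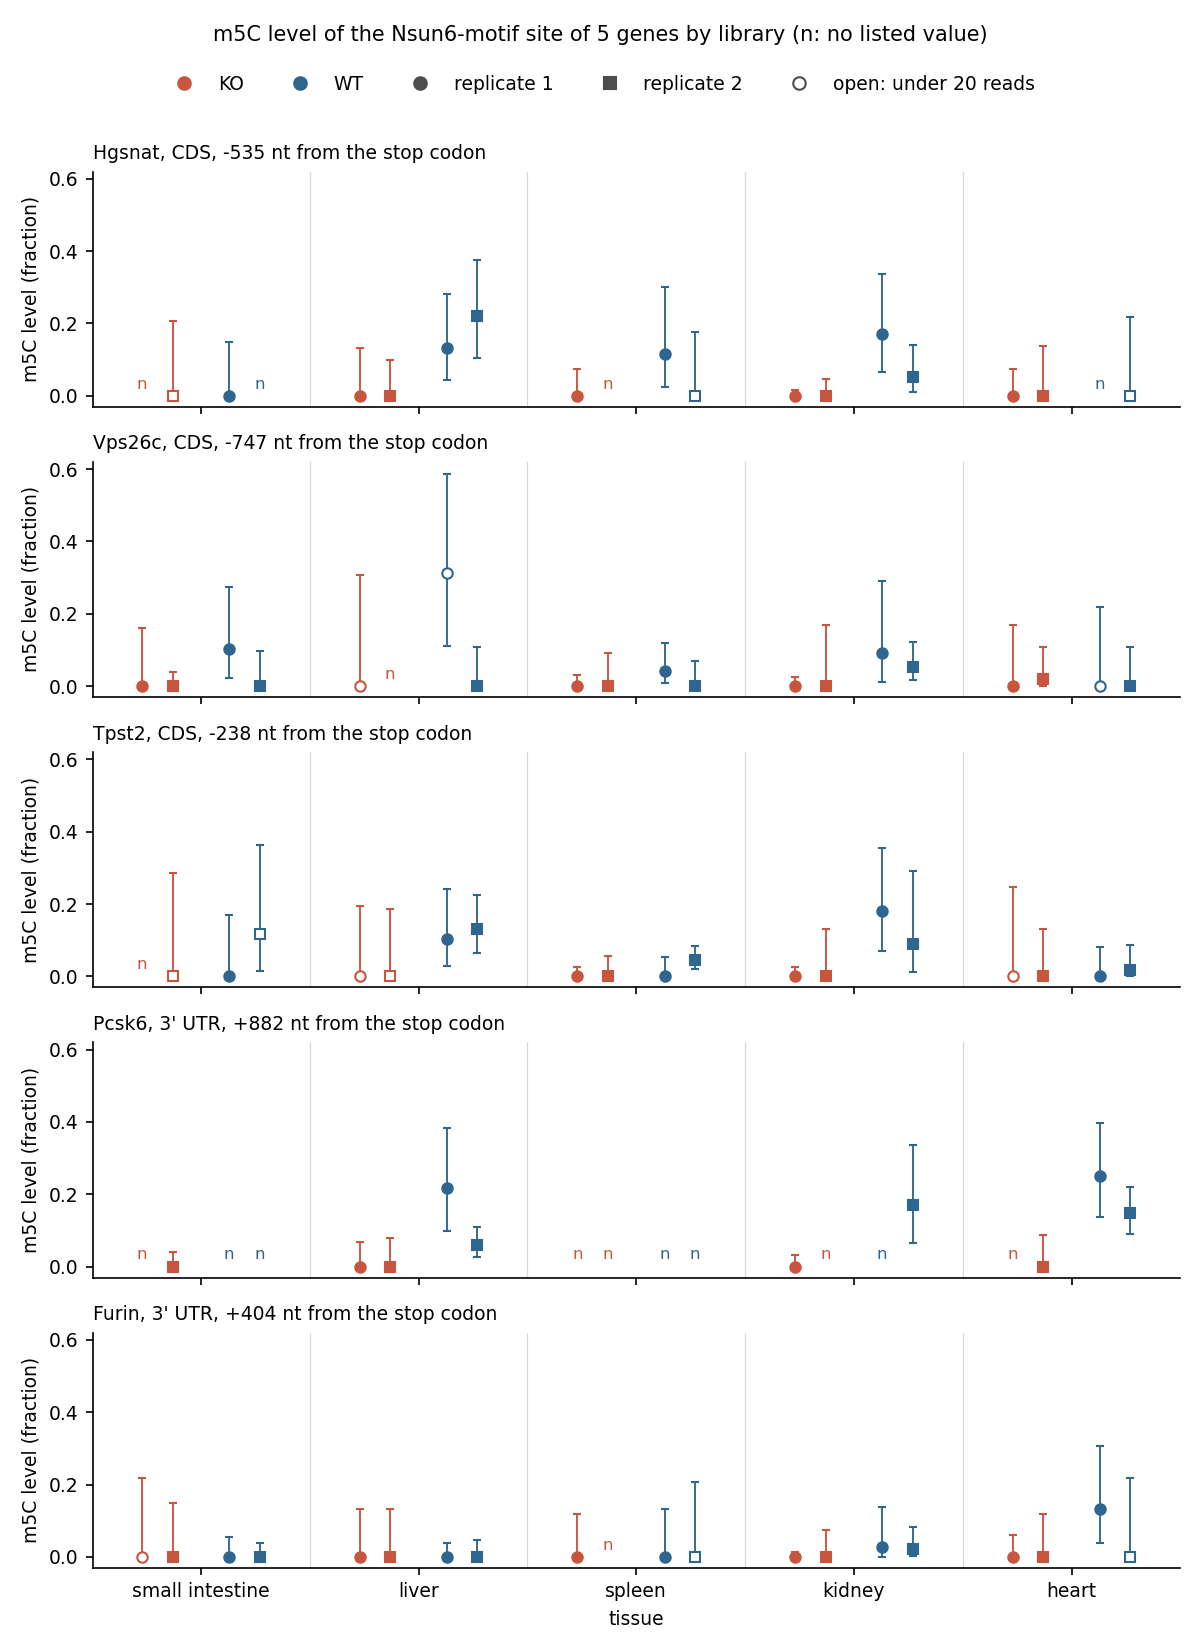
m5C level (fraction of reads unconverted) at the CTCCA site of 5 genes in each library, KO left of WT in each tissue; points are libraries, bars are exact 95% intervals for counting error, open points have under 20 reads and n marks a library without a listed value. KO points lie at 0 in all panels except Vps26c in heart, and the highest WT levels with at least 20 reads are those of Pcsk6 in heart and Hgsnat in liver.

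The study's criteria ask for at least 20 reads and 2 unconverted reads in both libraries of a group and a mean level of at least 0.05. With 20 reads also in both KO libraries, 6 pairs of a site and a tissue met them in WT: Hgsnat in liver and kidney, Pcsk6 in liver, Tpst2 in kidney, Vps26c in kidney and the A-run site of Acp2 in spleen. All 6 were at level 0 in both KO libraries, as were 83 of 801 such pairs of all genes (10.4%; 13.1% in liver, 11.6% in spleen and 12.9% in kidney). With the genotypes exchanged, 97 of 862 pairs (11.3%) met the criteria in KO and were at 0 in both WT libraries, and 0 of the 3 such pairs of these genes were. Over the 6 pairs the mean level was 0 in KO and 0.115 in WT, a difference of -0.115, with a root mean square SD between WT libraries of 0.071. Levels of this contrast chose the genes, so nothing is read from the 6 of 6. Just outside was Tpst2 in liver, which met the criteria in WT but had 17 and 18 KO reads. In the fit of KO against WT levels over all sites that met the criteria in either genotype, edgeR's quasi-likelihood test with Benjamini-Hochberg adjustment called 15 of 1165 tests lower in KO (1.29%) and 7 higher (0.601%), and none of the 9 tests at sites of these genes was among them. No p is given for those 9, since this contrast chose the genes.

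Acp2, whose phosphatase acts in the lysosome lumen, had a site outside the motif with unconverted reads in both genotypes. In spleen its A-run site had 0 of 21 and 0 of 93 unconverted reads in KO, against 2 of 22 and 2 of 75 in WT. In small intestine the KO libraries had 5 of 88 and 9 of 43, against 0 of 18 in the covered WT library. Kidney had 4 of 67 and 0 of 114 in KO, against 2 of 16 and 0 of 23 in WT. Heart had 1 of 81 in the covered KO library, against 0 of 50 and 4 of 84 in WT, and liver 0 of 12 in KO and 2 of 172 in WT. KO was lower in spleen, where each WT library had 2 unconverted reads. In small intestine the only WT value allows a level of up to 0.167. That limit lies above KO replicate 1 (0.0568) and below KO replicate 2 (0.209), so no direction is stated. The summed counts were 19 of 519 reads in KO and 12 of 460 in WT. The other 2 Acp2 sites had unconverted reads in 1 WT library each, 6 of 35 in heart replicate 1 and 4 of 32 in spleen replicate 1, and none in KO.

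A CDS site of Pcsk6 without the motif had unconverted reads in all 8 covered KO libraries. Kidney KO had 4 of 60 and 20 of 39, small intestine KO 14 of 73 and 1 of 11, and neither tissue had a WT value. Liver had 2 of 28 and 5 of 29 in KO, against 18 of 93 and 0 of 49 in WT. Heart had levels of 0.056 and 0.118 (6 of 51 reads) in KO, against 5 of 392 and 10 of 256 in WT. Its liver levels overlapped between the genotypes, whereas both heart KO libraries lay above both WT libraries, at 0.0128 and 0.0391. The site thus carried unconverted reads with and without Nsun6, and it passed in 5 libraries, 4 of them KO.

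Most of the other sites were unconverted in 1 library only. Of the 30 sites, 18 had unconverted reads in exactly 1 library, and all 18 were outside CTCCA. In Pcsk6, 4 sites outside the motif passed in liver WT replicate 2 (10 of 42, 9 of 52, 15 of 65 and 8 of 69 reads), of which only the 9 of 52 site had unconverted reads elsewhere, 2 of 444 in heart WT replicate 1. In Tpst2, 4 cytosines of the 3′ UTR starting 42 nt after the stop codon passed in 4 different libraries, 4 of 40 reads in heart KO replicate 1, 5 of 22 in liver WT replicate 1, 14 of 77 in spleen KO replicate 2 and 9 of 79 in spleen WT replicate 2. Within a library these cytosines are close enough to share reads, so their coverages are not separate observations. In Furin, the convertase of the trans-Golgi, the highest levels were 12 of 38 in spleen WT replicate 2, 15 of 50 in liver WT replicate 2 and 8 of 28 in heart WT replicate 1, each at a different site with at most 1 unconverted read elsewhere. The Furin 5′ UTR site was unconverted in 3 KO libraries (20 of 96 in spleen, 3 of 59 in kidney and 16 of 165 in heart) and 1 WT library (5 of 66 in heart). The Furin CDS site had 2 of 125 and 25 of 237 in KO kidney, against 3 of 28 and 0 of 42 in WT kidney. In liver it had 0 of 14 and 0 of 23 in KO, against 3 of 33 and 0 of 194 in WT, and all other libraries were at 0. The CTCCA sites passed the authors' thresholds in 0 KO and 13 WT instances, a contrast that the choice of genes favours. The other sites passed in 12 KO and 18 WT instances, beside 17755 KO and 16977 WT instances over all listed sites. Passes over all sites were uneven between libraries, in liver 128 and 115 in KO, against 1410 and 2577 in WT. The part of this in the liver differences of Hgsnat, Tpst2 and Pcsk6 was not tested. Libraries of the same group also differed, as in kidney KO (290 and 3303) and spleen KO (565 and 4679). The same held for spleen WT (597 and 4360) and small intestine KO (3741 and 606).

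**Figure D3:**
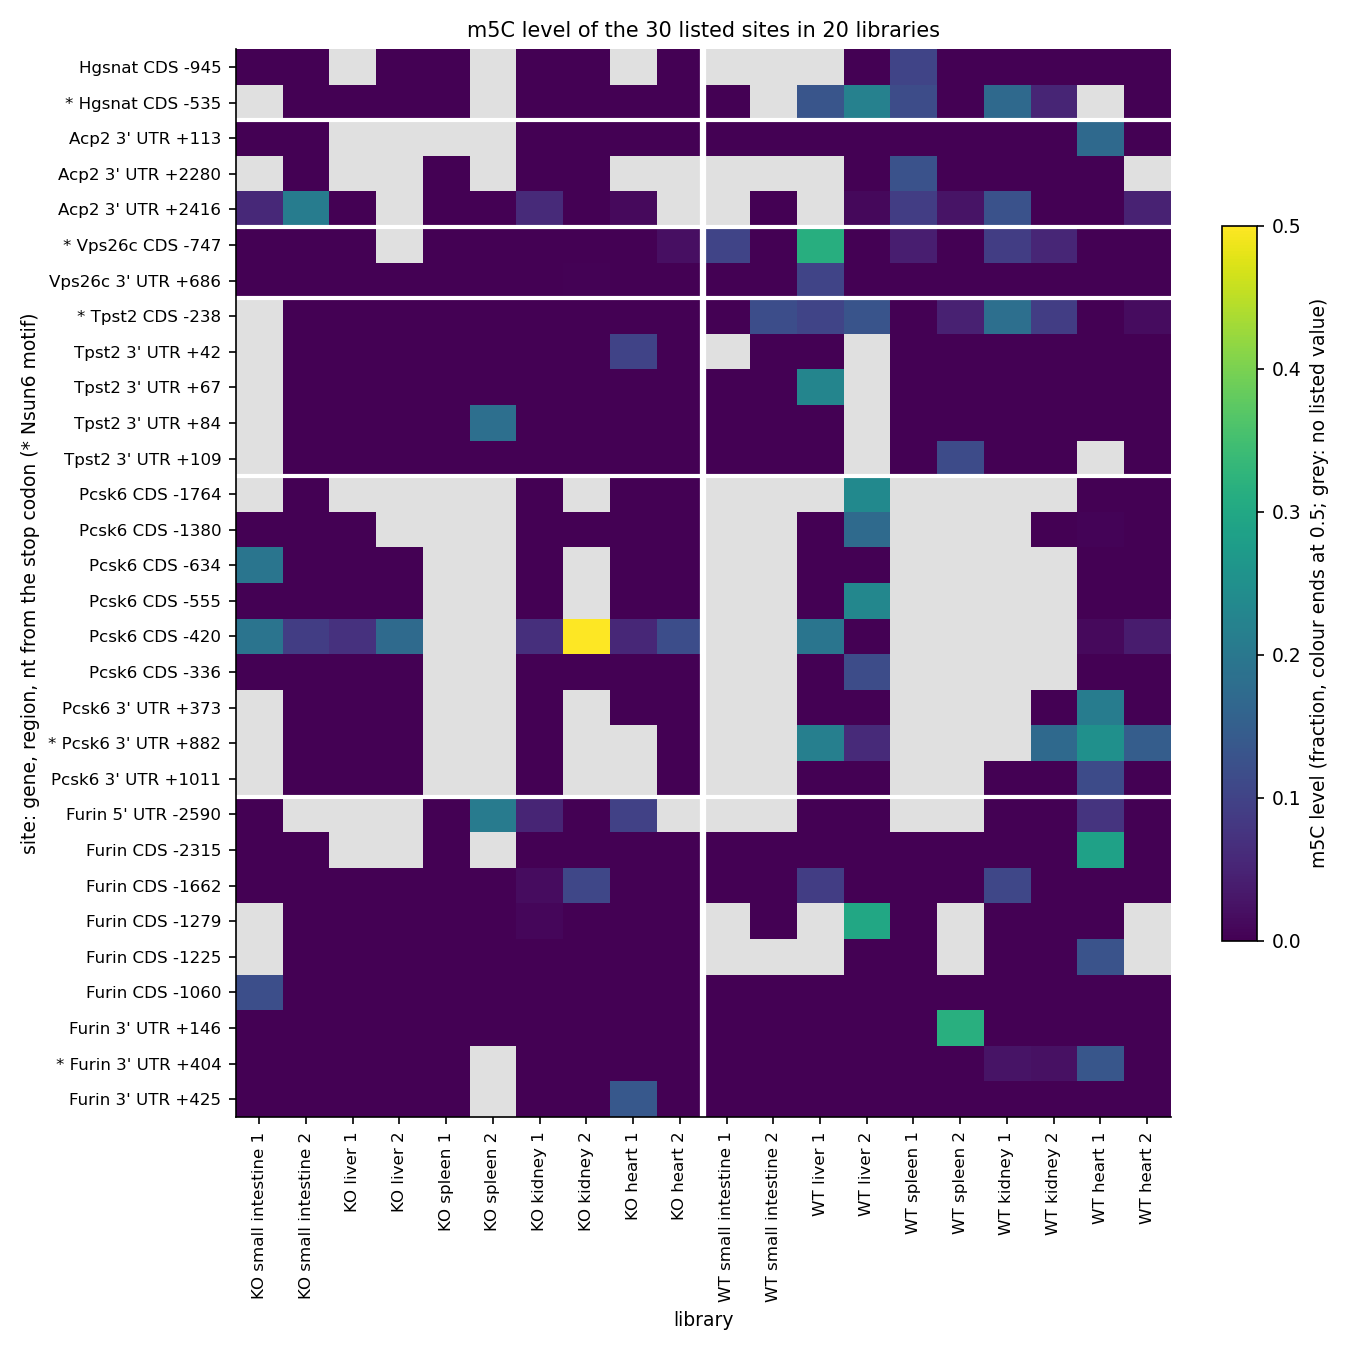
m5C level of the 30 sites (rows, by gene and nt from the stop codon, asterisk for the Nsun6 motif) in the 10 KO libraries (left) and 10 WT libraries (right); grey cells had no listed value. Asterisked rows are coloured in several WT columns and nearly blank in KO, while most other rows are coloured in 1 library.

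Levels between WT tissues were not the contrast that chose the genes. A WT level of at least 0.05 in some tissue was still part of the choice, so these values are not independent of it. Sites with 20 reads in all 4 WT libraries of 2 tissues and at least 5 unconverted reads in sum were tested. None of 25 tests at sites of these genes was called by edgeR's quasi-likelihood test (adjusted p 0.764 to 0.991 with Benjamini-Hochberg, 0 at an unadjusted p under 0.05). Over all genes 73 of 16844 tests (0.433%) were called, with 317 under 0.05 unadjusted. With limma 0 were called and 1143 were under 0.05 unadjusted. Few tests had a low p in edgeR, so the lack of calls does not show that levels were equal between tissues. Ordered by mean WT level, the Hgsnat site was at 0.176 in liver, 0.111 in kidney and 0.0577 in spleen, the Tpst2 site at 0.136 in kidney, 0.116 in liver, 0.0588 in small intestine, 0.0226 in spleen and 0.0082 in heart, and the Pcsk6 site at 0.199 in heart, 0.171 in the covered kidney library and 0.138 in liver. The Vps26c site was at 0.156 in liver, 0.0723 in kidney, 0.0517 in small intestine, 0.0214 in spleen and 0 in heart, and the Furin site at 0.0667 in heart, 0.0248 in kidney and 0 in the other tissues. Neighbours in these orders had overlapping libraries, except that both kidney libraries of the Furin site, with 3 unconverted reads between them, lay above the tissues at 0. The adjusted p for Hgsnat in liver against kidney was 0.951. The widest Tpst2 difference, kidney against heart, had a log2 odds ratio of 3.85 and an adjusted p of 0.774. Without liver WT replicate 2 the second Vps26c site had log2 odds ratios of -7.145 for small intestine against liver and 7.249 for liver against kidney. Without spleen WT replicate 1 the Furin site 146 nt after the stop codon had 8.081 for spleen against kidney. In each of these fits the lone remaining library is assumed to vary like the others, so no p is given. It is the only WT library that held unconverted reads at the site, and the only library of either genotype in which the site passed.

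Read coverage over the listed sites was taken as a measure of the mRNA, since the level is not part of its count. The level still enters which sites are summed, because a site is listed only where it passed in some library. In liver more sites passed in WT than in KO libraries, as given above. The part of this in the coverage differences was not tested. In bulk tissue, fewer cells that express a gene and less RNA per cell cannot be told apart. Of 30 pairs of a gene and a tissue 22 could be tested, and 0 were called by edgeR's quasi-likelihood test, as were 0 of 27417 tests over all genes (0%), with 1539 under an unadjusted p of 0.05. DESeq2 called 139 of the same tests, none of them in these genes. The log2 differences, KO over WT, ran from -1.21 to 1.27. In 11 of the 22 the KO and WT libraries did not overlap, beside 8598 of 27417 tests over all genes (31.4%). The 22 pairs share genes and libraries, so they are not separate observations and no result is read from the count.

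The 2 lowest differences, those of Tpst2 and Furin, were in liver. In CPM, counts scaled to a common total over all tested sites of a library, Tpst2 had 10.6 and 13.3 CPM in KO, against 23.9 and 40.3 in WT, a log2 difference of -1.21 ± 0.40 (SE, adjusted p 0.301, edgeR). This rests on the CTCCA site alone, with 17 and 18 reads in KO and 39 and 77 reads in WT. Without liver WT replicate 2, a setting that takes in the 3′ UTR sites, the difference was -0.03, and with no filter on low coverage it turned to 0.56. Furin had 108.5 and 102.4 CPM in KO, against 229.6 and 316.6 in WT (-1.17 ± 0.33, adjusted p 0.287). Pcsk6 had 141.6 and 158.5 in KO, against 231.4 and 314.6 in WT (-0.67 ± 0.33, adjusted p 0.395). In all 3 genes both KO libraries lay below both WT libraries, while Hgsnat, with 16.2 and 25.8 in KO against 23.3 and 21.5 in WT, overlapped. Without liver WT replicate 1 the log2 differences were -1.351 for Tpst2, -1.145 for Furin, -0.662 for Pcsk6 and 0.58 for Vps26c. Without liver WT replicate 2 they were -1.111 for Furin and -0.622 for Pcsk6, with that of Tpst2 given above. Each of these fits has 1 WT library, so a p would not measure the spread between WT libraries, and none is given. Over all genes the count of calls rose in both fits, a change in the whole table.

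The other tissues gave no common direction. Pcsk6 in heart had 367.9 and 252.8 CPM in KO, against 836 and 403.6 in WT (-1.05 ± 0.59, adjusted p 0.731). The difference was -0.38 without WT replicate 1 and -1.53 without WT replicate 2. Heart markers took 0.132% and 0.0948% of reads in the KO heart libraries, against 0.0273% and 0.0341% in WT, and their part in this difference was not tested. Acp2 had 16.2 and 12.6 in KO, against 32.4 and 29.4 in WT small intestine, but 44.4 and 102.6 in KO, against 40 and 31 in WT kidney. Furin in kidney had 381.3 and 452.3 in KO, against 213.9 and 346.4 in WT, the opposite of liver. Coverage was also uneven between tissues: Pcsk6 had no value at any of its 9 sites in the 4 spleen libraries, and its CTCCA site had none in WT small intestine.

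**Figure D4:**
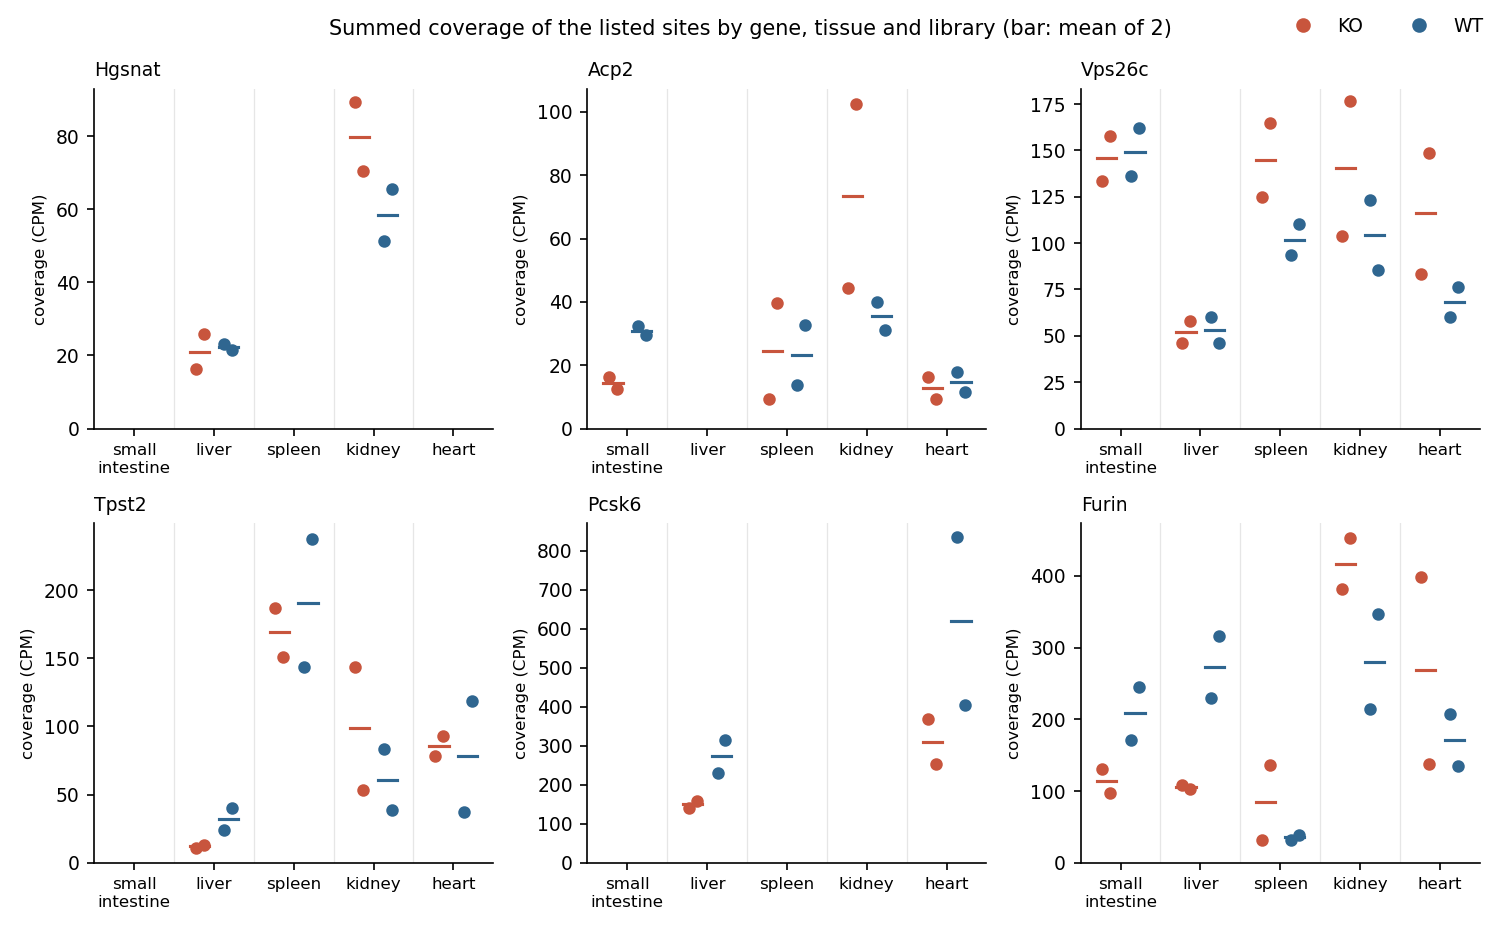
Coverage summed over the listed sites of each gene with a value in all 4 libraries of a tissue, scaled to a common total over all such sites (CPM), KO left of WT; points are libraries and bars their mean (n = 2), and tissues without such a site are empty. In liver the KO points of Tpst2, Pcsk6 and Furin lie below the WT points, and in kidney those of Furin and Acp2 lie above.

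Genes of the same compartments gave a small number of testable sites. Lists of lysosomal hydrolases, lysosomal membrane and acidification, endosomal sorting, proprotein convertases and Golgi sulfation and glycosylation held 180 genes beside the members, of which 145 had a listed site and 16 a site that could be tested for KO against WT. None of their 26 tests was called by edgeR after adjustment over all sites of a tissue, 0 lower and 0 higher, and 3 were under 0.05 unadjusted, beside 141 of 1165 for all sites. Median levels of the lysosomal membrane list were 0.141 in KO and 0.15 in WT, of the Golgi sulfation list 0.0713 in KO and 0.0794 in WT, of endosomal sorting 0.107 in KO and 0.0552 in WT and of the proprotein convertases 0.0267 in KO and 0.071 in WT (1 test), beside 0.0907 in KO and 0.0866 in WT over all tests. Gnptg, a subunit of the enzyme that tags hydrolases with mannose 6-phosphate, had the highest WT level among them, 0.146 ± 0.0193 in KO and 0.425 ± 0.12 in WT heart (adjusted p 0.675). Its same cytosine was at 0.236 ± 0.138 in KO and 0.166 ± 0.0403 in WT kidney. Liver had 0.168 ± 0.0519 in KO and 0.223 ± 0.0458 in WT at this cytosine. Small intestine had 0.0202 ± 0.0285 in KO and 0.0889 ± 0.0248 in WT, so KO had the higher mean in kidney only. Igf2r, the receptor that carries tagged hydrolases, was at 0.342 ± 0.00526 in KO and 0.23 ± 0.0388 in WT heart (adjusted p 0.937). In endosomal sorting, Snx1 was at 0.131 ± 0.0902 in KO and 0.0973 ± 0.0305 in WT heart.

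Genes of these lists held 5 listed CTCCA sites, of which 4 are described and were named after their values were seen. Golm1, a Golgi membrane protein, had 0 of 1069 unconverted reads in KO and 25 of 487 in WT, in 4 of 8 covered WT libraries. Galnt2, which starts mucin-type glycosylation, had 1 of 442 in KO and 11 of 478 in WT, in 1 library. In Man2a2 (22 of 1099 in KO, 0 of 1352 in WT) and Tfe3 (8 of 238 in KO, 0 of 194 in WT) the unconverted reads were in KO libraries only. Among these 4, then, Golm1 was the site with unconverted reads in more than 1 WT library and none in KO.

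For each gene with a site that met the criteria in WT, the 3 sites of other genes with the most similar levels were named, by Pearson correlation over the libraries in which that site had 20 reads. Genotype and library are shared by these points, and no p is given. For Hgsnat, over 13 libraries and 1823 sites, they were Selenok (r = 0.908), H2-Aa (0.817) and Prpf8 (0.802), all 3 at CTCCA. Vps26c, over 16 libraries, came closest to Rpl7l1 (0.794), Tmed3 (0.786) and Grk2 (0.765), of which 2 were at CTCCA. Pcsk6, over 10 libraries, came closest to Hdlbp (0.847), 3110040N11Rik (0.791) and Cpsf2 (0.788), of which also 2 were. For the Acp2 site, over 13 libraries, Cog8 (0.917), Atf6 (0.889) and Maea (0.881) were nearest, none at CTCCA. These had 4 to 6 unconverted reads each, summed over the 13 libraries compared. Rpl7l1 with 4 and Grk2 with 5 had as few over the 16 libraries of Vps26c. Lactb2, Ankrd46 and Commd4 were the nearest for Tpst2 over 14 libraries (0.669 each). Within those 14 libraries they had 1 unconverted read each, so their likeness rests on a single library.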

How the data were processed

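mRNA captured on beads from 5 tissues of KO and WT mice was treated with bisulfite and sequenced as stranded libraries. The authors called sites in each library with an RNA m5C pipeline, of which no source used here gives the version or aligner. The submitters' processing notes name mm10. Per the file headers, the deposited table gives each site's coverage as a count of reads, its count of unconverted reads and a mark for sites they passed in that library. The lowest listed coverage was 10 reads, and the lowest values at passed sites were a coverage of 20, 3 unconverted reads and a level of 0.1. The deposited levels, p-values, signal values and nonconversion rates (80 columns) were not used. Groups came from the labels of each sample.

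Levels were the unconverted count over the coverage count, with exact Clopper-Pearson intervals at 95% and, for a count of 0, a limit of 3 counts over the reads; both cover counting error only, because PCR copies of a molecule were not marked. Unconverted and converted counts were fitted over all sites with edgeR 4.0.16 (glmQLFit, glmQLFTest, with library intercepts and a term for the level in each genotype or tissue, R 4.3.3), coverage per gene with edgeR and TMM, all with Benjamini-Hochberg adjustment at 0.05, two-sided. limma 3.58.1 on logit levels (0.5 added to both counts) and DESeq2 1.42.0 were alternatives, beside other coverage minimums, no filter on low coverage, a replicate block and leaving out each library. The fits were also run on simulated data. Simulated levels varied by counting error alone, unlike the real libraries, so they do not show how the level fit handles spread between libraries. Sequence and regions came from the GRCm38 (mm10) genome and GENCODE M21, in which 10233 of 10243 gene identifiers were found; folds came from RNAfold 2.7.2. Figures were drawn with matplotlib 3.10.9.

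The members and the gene lists were chosen with earlier results of these data known. Genes beside the members were named by a fixed rule, except 4 list genes with CTCCA sites, named after their values were seen. The rule took the 3 sites most like each lead site, and up to 4 genes a list. Those with a call came first, then those with the highest WT level. Marker lists held 8 genes each. A listed site was found for 7 spleen, 7 macrophage, 6 smooth muscle, 5 liver, 5 kidney, 4 small intestine epithelium, 4 erythroid, 4 adipose, 3 heart and 3 pancreas acinar markers. Pancreas acinar markers took 0.915% and 1.41% of reads in small intestine KO replicate 1 and WT replicate 1, adipose markers at most 0.0813% and smooth muscle markers at most 1.43% in any library. Some results of the gene lists are not reported here.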

Additional observations from a re-analysis of the deposited data

Results flagged for a closer look

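The comparison of a library's value with the rest of its group needs at least 4 libraries and was not made. Opposite differences in 2 tissues, with KO and WT libraries not overlapping in either, were found for coverage in 2 of the 6 genes, and in 1365 of 6677 genes with coverage in 2 or more tissues (20.4%). Acp2 coverage was lower in KO than in WT small intestine and higher in KO than in WT kidney, log2 differences that lie -2.11 apart. Furin coverage was lower in KO in small intestine and liver and higher in KO in kidney, -1.39 apart for small intestine against kidney and -1.72 for liver against kidney. The difference between tissues was not tested, and none of these coverages was called within a tissue.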

How the results depend on the processing

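The mean level difference over the member pairs that met the criteria lay between -0.152 and -0.0947 under 22 alternatives, with a sign that the choice of genes and criteria fixes; a minimum of 40 reads left no pair. Counts over all sites depended on the setting. With limma on logit levels, 4 sites were lower and 0 higher in KO, against 15 and 7 with edgeR, and 0 calls were made between WT tissues, against 73. DESeq2 called 139 genes for coverage, against 0. Leaving out a library gave 12 to 992 lower sites, 4 to 1707 higher sites, 64 to 1527 calls between WT tissues and 0 to 2729 genes for coverage. The coverage difference of Tpst2 in liver was 0.557 with no filter on low coverage, the reverse of its sign otherwise; that setting takes in more sites and counts unlisted values as 0. Deviations of same-numbered libraries correlated at -0.145 to 0.075 for levels and -0.127 to 0.404 for coverage (0.325 in small intestine, 0.404 in spleen and 0.322 in heart), not over 0.1 in every tissue, and no label ties the numbers. A replicate block gave 14 lower and 12 higher sites, 197 calls between WT tissues and 9 genes for coverage, with none in these 6 genes for the last 2. Crossed numbers, tried after seeing the data, gave 14 lower and 7 higher sites in a fit changed in heart and 0 genes in a fit changed in kidney. Of the 453 member values, 99 had under 20 reads.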
